A study of Macaca mulatta with 7 samples.

Results

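GPR17, ENPP6, BCAS1, TCF7L2, SOX6, SOX10, OLIG2 and PDGFRA mark the steps by which an oligodendrocyte precursor cell (OPC) becomes a new oligodendrocyte. These 8 genes were picked by symbol from the 28966 symbols or identifiers counted in nuclei of the rhesus monkey (Macaca mulatta) spinal cord, and every one of the 8 was found. Single-nucleus RNA sequencing (snRNA-seq) was carried out on 7 libraries: intact cervical, thoracic and lumbar cord (5 years of age, untreated), and lumbar cord after a complete transection of the thoracic cord. The injured libraries came from 7 days post injury (dpi; 7 years of age), 14 dpi (7 years), 30 dpi (6 years) and 6 months post injury (mpi; 6 years). All animals were adult females by the study's methods. The lumbar tissue lies below the lesion and was not itself cut. By the study's account 1 animal of each time point was sequenced and the 3 intact pieces came from 1 uninjured cord, so there was 1 library for each group, no replicate and no test between groups. The range of the 3 intact libraries, used below as the reference, is therefore a range between segments of 1 cord and holds no spread between animals. Time after injury, animal, age and library preparation cannot be told apart. The intervals given below are exact 95% intervals that cover counting error only.

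After transcript molecules (UMIs, unique molecular identifiers) were counted for 63730 nuclei, clustering without the 8 genes gave 3949 OPC-like nuclei and 22253 oligodendrocyte-like nuclei. The OPC-like nuclei numbered 683, 1415 and 738 across intact cervical, thoracic and lumbar cord, and 328, 236, 329 and 220 at 7 dpi, 14 dpi, 30 dpi and 6 mpi. Their defining markers, among them PCDH15 and VCAN, summed to between 22317 and 27818 CPM (UMIs of a gene divided by all UMIs of the same nuclei and multiplied by 1e6) across the 7 libraries, against 180.3 to 379.7 CPM in oligodendrocyte-like nuclei. The median depth of an OPC-like nucleus was lowest at 6 mpi, 3676.5 UMIs, and highest at 30 dpi, 8557 UMIs. Between 12 and 36 cell barcodes were shared by any pair of libraries, at most 0.379% of the smaller one. When the lineage was clustered again, OPC-like nuclei of intact cord lay mainly in one sub-cluster of 2790 nuclei, 97.6% of them from intact cord, and those of injured cord mainly in another of 1018 nuclei, so the OPC values below compare different sub-clusters.

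OPCs are dividing, PDGF-dependent cells that persist in the adult cord and can replace lost oligodendrocytes. On leaving the cycle they pass through a short committed stage in which GPR17 is high, and then through a premyelinating stage in which ENPP6 and BCAS1 rise and PDGFRA is lost. PDGFRA is the receptor for platelet-derived growth factor. OLIG2 and SOX10 are transcription factors of the whole lineage, SOX6 is a transcription factor that holds precursors undifferentiated, and TCF7L2 is a Wnt pathway effector needed by newly forming oligodendrocytes. GPR17 is a G protein-coupled receptor that restrains maturation, ENPP6 is a choline-specific phosphodiesterase, and BCAS1 is a protein of early myelinating cells.

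The 250 bases upstream of the annotated gene start are given for 4 of the genes that were higher in committed precursor-like nuclei than in the nuclei on either side of them, as described further on (SOX6 and SOX10 were the others). The sequences come from the RefSeq annotation of the Mmul_10 assembly, run 5′ to 3′ on the gene's strand and end at the base before the gene start, and capitals mark the reverse complement of a SOX-type motif (ACAAAG or ACAATG, searched on both strands).
GPR17, chr12:3246047-3246296, minus strand: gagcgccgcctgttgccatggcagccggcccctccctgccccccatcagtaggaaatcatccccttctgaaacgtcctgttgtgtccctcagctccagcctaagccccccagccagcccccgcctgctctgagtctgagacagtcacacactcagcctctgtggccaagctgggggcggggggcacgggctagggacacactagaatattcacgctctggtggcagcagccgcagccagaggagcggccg
ENPP6, chr5:181533418-181533667, minus strand: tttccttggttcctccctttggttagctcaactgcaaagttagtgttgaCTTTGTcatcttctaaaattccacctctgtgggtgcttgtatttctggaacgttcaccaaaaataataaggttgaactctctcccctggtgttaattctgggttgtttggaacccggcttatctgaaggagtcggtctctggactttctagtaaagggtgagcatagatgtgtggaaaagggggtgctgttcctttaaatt
BCAS1, chr10:89278298-89278547, minus strand: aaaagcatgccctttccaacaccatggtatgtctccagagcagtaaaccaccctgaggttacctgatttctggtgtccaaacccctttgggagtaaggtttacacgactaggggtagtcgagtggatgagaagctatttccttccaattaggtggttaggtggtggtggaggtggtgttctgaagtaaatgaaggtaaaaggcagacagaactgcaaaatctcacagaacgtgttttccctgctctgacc
TCF7L2, chr9:113474676-113474925, plus strand: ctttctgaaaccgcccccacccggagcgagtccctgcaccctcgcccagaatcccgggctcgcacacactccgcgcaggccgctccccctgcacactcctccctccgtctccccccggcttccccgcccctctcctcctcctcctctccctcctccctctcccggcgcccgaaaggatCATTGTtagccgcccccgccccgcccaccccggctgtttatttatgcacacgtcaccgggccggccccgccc

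GPR17 and TCF7L2 upstream sequences were rich in G and C, at 65.6% and 71.2%, against 43.2% for ENPP6, 47.2% for BCAS1 and a median of 57.2% over the 20782 upstream sequences of the annotation. A SOX-type motif was present upstream of 3 of the 8 genes (ENPP6, TCF7L2 and SOX6) and in 18.8% of all upstream sequences. The OLIG-type E-box CAGCTG occurred upstream of 0 of the 8 and in 12% of all, and a TCF motif (CTTTGAT or CTTTGAA) upstream of 1 of the 8, PDGFRA, and in 5.57% of all. These are letter matches in a fixed window and show no binding. The GPR17 gene lies on the minus strand of chromosome 12 (chr12:3239628-3246046) inside LIMS2 on the plus strand (chr12:3209978-3253751). Of its 6419 bases, 6205 lie in introns and 214 in exons of LIMS2. Whether strand was used in counting was not given in the sources used here, so the part of LIMS2 reads in GPR17 was not tested.

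Among cell classes, GPR17 was the member most restricted to OPC-like nuclei. Its pooled level was 36.7 CPM in OPC-like nuclei (17.5 to 58.0 over the 7 libraries), 0.647 CPM in oligodendrocyte-like nuclei (0.354 to 1.79), 0.207 CPM in neuron-like nuclei and 0.0923 CPM in microglia/macrophage-like nuclei, and no GPR17 UMI was found in astrocyte-like nuclei. OLIG2 had a similar order, with 116 CPM in OPC-like nuclei (93.9 to 191) and 10.1 CPM in oligodendrocyte-like nuclei (4.99 to 18.7). The library ranges of the OPC-like and oligodendrocyte-like nuclei did not overlap for either gene, nor for ENPP6, TCF7L2, SOX6 and PDGFRA. The share of all genes without overlap between these classes was not counted, so no result is read from it. SOX10 spanned the lineage, with 125 CPM in OPC-like nuclei (108 to 165) and 104 CPM in oligodendrocyte-like nuclei (81.4 to 157), ranges that overlapped. BCAS1 did the same, at 1168 CPM (603 to 1528) and 1127 CPM (835 to 1262). ENPP6 was the only member whose pooled level was higher in oligodendrocyte-like nuclei, 189.8 CPM (138 to 218), than in OPC-like nuclei, 70.4 CPM (34.9 to 119).

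SOX6, TCF7L2 and PDGFRA were not limited to the lineage. SOX6 reached 3066 CPM in OPC-like nuclei (2644 to 4554), but also 896 CPM in astrocyte-like nuclei (752 to 1224) and 749 CPM in ependymal-like nuclei, against 51.2 CPM in oligodendrocyte-like nuclei (32.7 to 80.4). TCF7L2 stood at 51.2 CPM in astrocyte-like nuclei (46.2 to 97.1), 39.0 CPM in OPC-like nuclei (34.2 to 50.1) and 33.4 CPM in microglia/macrophage-like nuclei (27.3 to 57.5), neighbours whose library ranges overlapped. PDGFRA was highest in OPC-like nuclei, 911 CPM (837 to 985). It was also counted in every other class at 100.8 CPM or more in each library, with 149.9 CPM in neuron-like nuclei, 202 CPM in microglia/macrophage-like nuclei and 113 CPM in astrocyte-like nuclei. The source of the PDGFRA count in classes other than OPC was not tested, nor its part in the PDGFRA values of OPC-like and committed precursor-like nuclei.

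**Figure D1:**
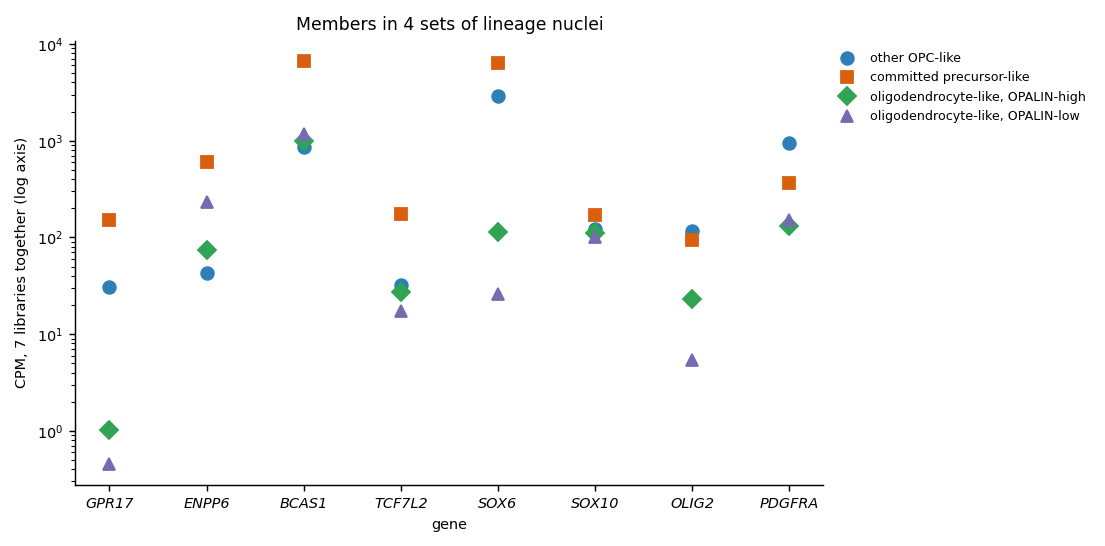
Levels of the 8 genes in CPM, on a log axis, in the sets of oligodendrocyte lineage nuclei obtained without using those genes, each value from the summed UMIs of all 7 libraries. Among the 4 sets drawn, GPR17, ENPP6, BCAS1, TCF7L2, SOX6 and SOX10 are highest in the committed precursor-like nuclei, at 152, 599, 6687, 176, 6310 and 172 CPM, and PDGFRA and OLIG2 in the other OPC-like nuclei, while a low-MBP oligodendrocyte-like sub-cluster of 190 nuclei that is not drawn has more SOX10, 247 CPM.

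Re-clustering of the lineage, again without the 8 genes, separated a sub-cluster of 141 nuclei named from the precursor markers and from a list of committed-stage markers holding none of the 8 (NEU4, BMP4, TNS3, FYN, ITPR2, CASR, RRAS2, EPHB1, SOX4 and SOX11). Of these 10 markers 8 were detected in it, and CASR and SOX11 were at 0 in every library. It is called committed precursor-like here, and 140 of its nuclei belonged to the OPC-like class. Its leading genes in the pooled libraries were TMEM108, BMPER, KCNB2, COL14A1, PTPRO, FRMD4A, TMEM163, BFSP2, EPHB1 and IFI44L. EPHB1, also a naming marker, was not higher in each library. In intact cervical, thoracic and lumbar cord it was at 740, 153 and 46.0 CPM against 37.9, 42.5 and 63.7 CPM in the other OPC-like nuclei. At 14 dpi, 30 dpi and 6 mpi it was at 21.8, 1226 and 0 CPM against 45.7, 69.2 and 71.1 CPM. Committed precursor-like nuclei were deeper than the other OPC-like nuclei, with medians of 9141 and 6412 UMIs. Its committed-marker score was 0.781 and its precursor-marker score 0.742. Each score is scaled to the highest sub-cluster for its own markers, so the gap between them measures no distance. The first clustering left clusters with a close second score unnamed, a rule that was not applied to the sub-clusters. The committed-marker score was 0.257 and 0.266 in the OPC sub-clusters of 2790 and 1018 nuclei. The name is a label from these markers, and whether the nuclei are a separate cell type was not tested.

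GPR17 stood at 152 CPM in the committed precursor-like nuclei, 30.4 CPM in the other OPC-like nuclei, and 1.02 and 0.450 CPM in oligodendrocyte-like nuclei with high and low levels of OPALIN, a myelin protein gene. LIMS2, the gene around GPR17, was at 134 CPM in the committed precursor-like and 6.25 CPM in the other OPC-like nuclei, and its part in the GPR17 counts was not tested. ENPP6 followed with 599 CPM against 42.7, 73.7 and 231 CPM in the same 3 sets, and BCAS1 with 6687 CPM against 866, 995 and 1176 CPM. TCF7L2 was at 176 CPM against 32.0, 27.1 and 17.3 CPM. GPR17, ENPP6, BCAS1 and TCF7L2 were thus each higher in the committed precursor-like nuclei than on either side of them in these pooled values. The order did not hold in every library: at 14 dpi ENPP6 was at 166 CPM in the committed precursor-like and 221 CPM in the OPALIN-low nuclei, and at 6 mpi GPR17 had 0 UMIs in the 3 committed precursor-like nuclei. At 14 dpi GPR17 was little higher in the committed precursor-like nuclei. They were 13.6% of OPC-like nuclei there and held 17.1% of the GPR17 UMIs, 14 of 82, found in 9 of the 32 nuclei. SOX6, at 6310 CPM, was also above the other OPC-like nuclei, at 2883 CPM, and far above both oligodendrocyte sets, at 114 and 25.9 CPM. PDGFRA was lower, 368 CPM against 940.4 CPM in the other OPC-like nuclei, while SOX10 (172 against 123 CPM) was higher and OLIG2 (94.3 against 117 CPM) lower by less. SOX10 was at 110 and 101 CPM in the OPALIN-high and OPALIN-low nuclei. A further oligodendrocyte-like sub-cluster of 190 nuclei with little MBP, described further on, had less GPR17, ENPP6, BCAS1, TCF7L2 and SOX6 than the committed precursor-like nuclei but more SOX10, 247 CPM. UMIs of GPR17 were found in 81 of the 141 nuclei, of ENPP6 in 93, of TCF7L2 in 75 and of BCAS1 in all 141.

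The committed precursor-like nuclei were not alike across libraries. Their GPR17 level was 210.4, 181 and 147 CPM in intact cervical, thoracic and lumbar cord, 61.0 CPM at 14 dpi and 135 CPM at 30 dpi, and 0 UMIs were counted in the 3 nuclei at 6 mpi. ENPP6 stood at 841, 503 and 515 CPM in intact cord, 166 CPM at 14 dpi, 1123 CPM at 30 dpi and 259.7 CPM at 6 mpi. The 14 dpi nuclei were thus the lowest of the libraries with 11 or more such nuclei in both genes, and the 30 dpi nuclei the highest in ENPP6. TCF7L2 had the same extremes among those libraries, 78.5 CPM at 14 dpi and 365 CPM at 30 dpi, with 247, 131 and 92.0 CPM in intact cord. BCAS1 varied less, from 5305 CPM at 14 dpi to 8570 CPM at 6 mpi. PDGFRA ran in the other order, with 562 CPM at 14 dpi, 167 CPM at 30 dpi and 326, 395 and 396 CPM in intact cord. MBP, the gene of myelin basic protein and no member, was at 144 CPM in the 14 dpi nuclei, 4826 CPM in the 30 dpi nuclei, and 3250, 1560 and 110.4 CPM in intact cervical, thoracic and lumbar nuclei. Median depth ranged from 5892 UMIs at 6 mpi and 5947 at 14 dpi to 16754 UMIs at 30 dpi, and its part in these differences was not tested. In the 14 dpi nuclei microglia/macrophage markers summed to 113 CPM against 0 to 21.8 CPM in intact cord. Astrocyte markers summed to 336 against 116 to 190 CPM, and neuron markers to 187 against 313 to 566 CPM. At 30 dpi these sums were 46.1, 81.5 and 482 CPM. Oligodendrocyte markers summed to 4418, 2341 and 331 CPM in intact cervical, thoracic and lumbar nuclei. They summed to 375, 6760 and 195 CPM at 14 dpi, 30 dpi and 6 mpi. OPC markers summed to 18121, 26068 and 31808 CPM in intact cord and to 30257, 15972 and 28501 CPM after injury. The part of those classes was not tested either, nor that of doublets that escaped removal.

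Committed precursor-like nuclei were uncommon in every library. They numbered 13, 67 and 11 across intact cervical, thoracic and lumbar cord and 0, 32, 15 and 3 at 7 dpi, 14 dpi, 30 dpi and 6 mpi. Of all lineage nuclei they made up 0.257%, 1.24% and 0.261% in intact cord, 1.48% at 14 dpi, 0.486% at 30 dpi and 0.139% at 6 mpi. The 30 dpi share depended on the sub-clustering and was 0.810% at a resolution of 0.5 in place of 1. As a share of OPC-like nuclei they reached 13.6% at 14 dpi (Clopper-Pearson 95% interval 9.46% to 18.6%), against 1.49% in intact lumbar, 4.73% in intact thoracic and 1.90% in intact cervical cord. At 7 dpi, 0 of 328 OPC-like nuclei allow a share of up to 0.915% by the limit of 3 counts, and the Clopper-Pearson upper bound is 1.12%. The share at 30 dpi was 4.26% (2.35% to 7.04%), inside the range of the intact segments. The 14 dpi share of OPC-like nuclei lay above the 3 intact shares by more than counting error. As a share of lineage nuclei its interval, 1.02% to 2.09%, overlapped that of intact thoracic cord, 0.961% to 1.57%, and the spread between animals is unknown.

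**Figure D2:**
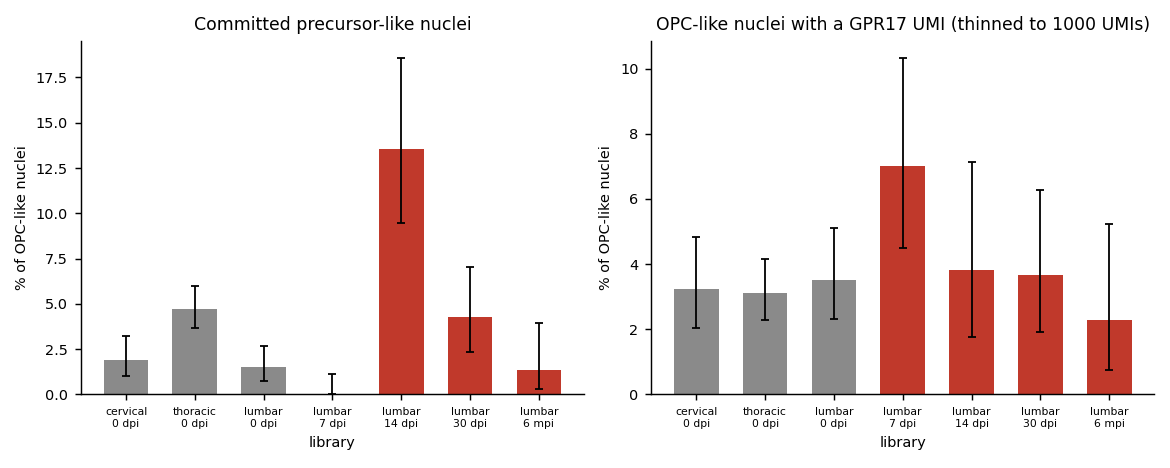
Percent of OPC-like nuclei in each of the 7 libraries (grey intact, red injured), with thin lines for exact Clopper-Pearson 95% intervals, that were committed precursor-like (left) or that held a GPR17 UMI (right) after each nucleus was thinned to 1000 UMIs. The 14 dpi library has the highest committed share and the 7 dpi library, with 0 such nuclei, the highest GPR17 share, 7.01%.

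GPR17 was counted in OPC-like nuclei at 34.2, 33.8 and 37.4 CPM in intact cervical, thoracic and lumbar cord, and at 58.0, 48.4, 35.4 and 17.5 CPM at 7 dpi, 14 dpi, 30 dpi and 6 mpi. The intact segments were close together, 7 and 14 dpi were above them, and 6 mpi was below. Against intact lumbar cord the 7 dpi level was 1.55-fold higher (log2 ratio 0.63, 95% interval 0.28 to 0.98), and the 6 mpi level, on 15 UMIs, was 2.14-fold lower (log2 ratio -1.10, -1.96 to -0.34). Without the committed precursor-like nuclei the 6 mpi log2 ratio was -0.97, just short of 2-fold. At 14 dpi the interval of the log2 ratio, -0.02 to 0.76, included 0. After thinning to 1000 UMIs a nucleus, GPR17 was detected in 3.22%, 3.11% and 3.52% of OPC-like nuclei in the intact libraries, 7.01% at 7 dpi (4.50% to 10.3%), 3.81% at 14 dpi, 3.65% at 30 dpi and 2.27% at 6 mpi (0.742% to 5.22%). Without thinning the shares were 19.8%, 15.5%, 18.7%, 25%, 26.7%, 20.4% and 6.82% in the same order of libraries. For background, thinned microglia/macrophage-like nuclei had a GPR17 UMI in 2 of 17967 nuclei (0.0111%; median depth 4304 UMIs) and neuron-like nuclei in 1 of 9744 (0.0103%; 28885 UMIs), so the OPC shares were far above background. The low 6 mpi value thus held in level but not beyond the counting interval in the thinned share.

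A member was called different when it was at least 2-fold from intact lumbar cord in either direction and outside the range of the 3 intact libraries, among genes of at least 20 CPM on average over the 7 libraries. In OPC-like nuclei all 8 genes could be called. At 7 dpi 0 of the 8 were called, against 3.56% of the 6271 genes examined. At 14 dpi 0 were called, against 3.21%. At 30 dpi 1 was called, ENPP6, against 2.76%. At 6 mpi 1 was called, GPR17, against 5.29%. In a list of 8 genes, 0 or 1 call is too few to be read as a difference from these backgrounds.

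ENPP6 in OPC-like nuclei was at 62.6, 79.6 and 53.9 CPM in intact cervical, thoracic and lumbar cord and at 38.5, 44.8, 119 and 34.9 CPM at 7 dpi, 14 dpi, 30 dpi and 6 mpi. Only the 30 dpi library was above the intact ones, by 2.21-fold over intact lumbar cord (log2 ratio 1.15, 0.92 to 1.38), and the other injured libraries were below them. Of the 384 ENPP6 UMIs at 30 dpi, 274 (71.4%) came from the committed precursor-like nuclei, 14 of them in the OPC-like class. With the committed precursor-like nuclei left out, a choice made after the values were seen, ENPP6 was at 41.3, 49.3, 43.2, 38.5, 25.9, 37.0 and 30.8 CPM in the same order. The 30 dpi log2 ratio was then -0.22 (-0.57 to 0.12). The ENPP6 difference at 30 dpi was therefore held by a few nuclei and not by the bulk of OPC-like nuclei.

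BCAS1 in OPC-like nuclei was at 1125, 1266 and 985 CPM in intact cervical, thoracic and lumbar cord and at 603, 1528, 1369 and 1055 CPM at 7 dpi, 14 dpi, 30 dpi and 6 mpi. The 7 dpi library was below every intact library, 1.63-fold lower than intact lumbar cord, and 14 and 30 dpi were above, by 1.55-fold and 1.39-fold over intact lumbar cord. Leaving out the committed precursor-like nuclei gave 966, 863, 834, 603, 937, 879 and 918 CPM, so that only 7 dpi stayed outside the intact range. TCF7L2 was at 42.5, 35.4, 34.2, 42.6, 34.2, 50.02 and 50.1 CPM, with 30 dpi and 6 mpi above the intact libraries and 7 and 14 dpi almost at the ends of their range. Without the committed precursor-like nuclei its 30 dpi level was 24.9 CPM, below the intact levels of 36.9, 28.5 and 32.9 CPM, while 6 mpi stayed at 47.4 CPM. In sum over all libraries, the committed precursor-like nuclei were 3.55% of OPC-like nuclei but held 42.4% of their ENPP6 UMIs, 29.7% of BCAS1, 22.2% of TCF7L2, 21.3% of GPR17, 10.7% of SOX6 and 2.09% of PDGFRA UMIs.

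**Figure D3:**
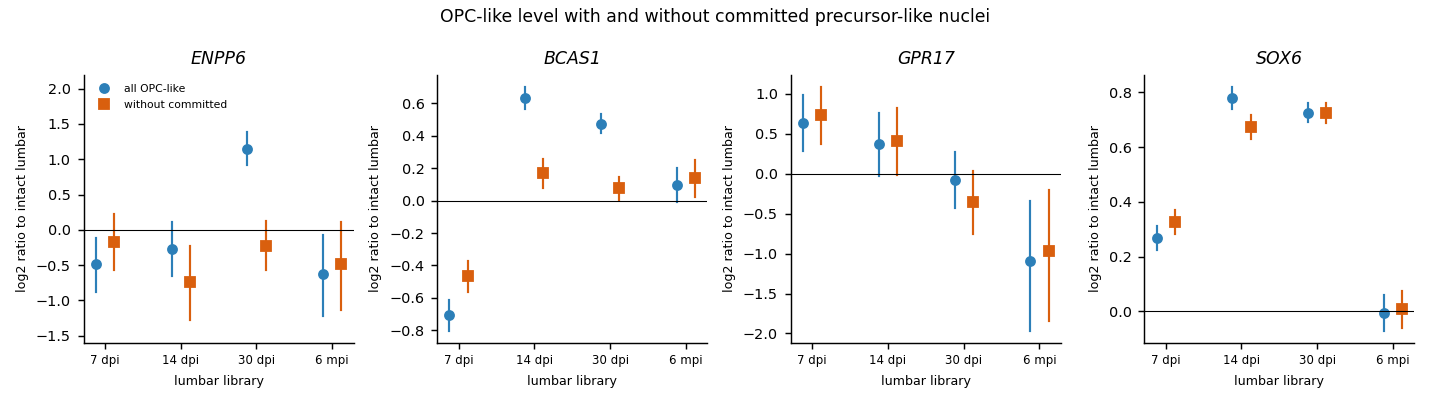
Log2 ratio of the level in OPC-like nuclei of each injured lumbar library to intact lumbar cord for ENPP6, BCAS1, GPR17 and SOX6, with all OPC-like nuclei (circles) and without the committed precursor-like ones (squares), bars giving exact 95% intervals. The 30 dpi ENPP6 ratio goes from 1.15 to -0.22 when those nuclei are left out, while SOX6 at 30 dpi stays at 0.73 and 0.72.

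SOX6 in OPC-like nuclei was at 2660, 2824 and 2653 CPM in intact cervical, thoracic and lumbar cord and at 3191, 4554, 4386 and 2644 CPM at 7 dpi, 14 dpi, 30 dpi and 6 mpi. It was 1.72-fold higher at 14 dpi and 1.65-fold higher at 30 dpi than in intact lumbar cord, under the 2-fold limit. These values moved little without the committed precursor-like nuclei, to 4063 and 4206 CPM against 2546 CPM. SOX10 was at 116, 122, 119, 165, 142, 133 and 108 CPM in the same order, highest at 7 dpi at 1.38 times the intact lumbar level. OLIG2 was at 140.5, 94.3, 133, 93.9, 112, 120.2 and 191 CPM, and only 6 mpi, 1.43-fold higher than intact lumbar cord, was well outside the intact range. PDGFRA was the steadiest of the 8 in OPC-like nuclei, at 985, 889, 936, 879.7, 972, 837 and 841 CPM, with log2 ratios to intact lumbar cord between -0.16 and 0.05.

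**Figure D4:**
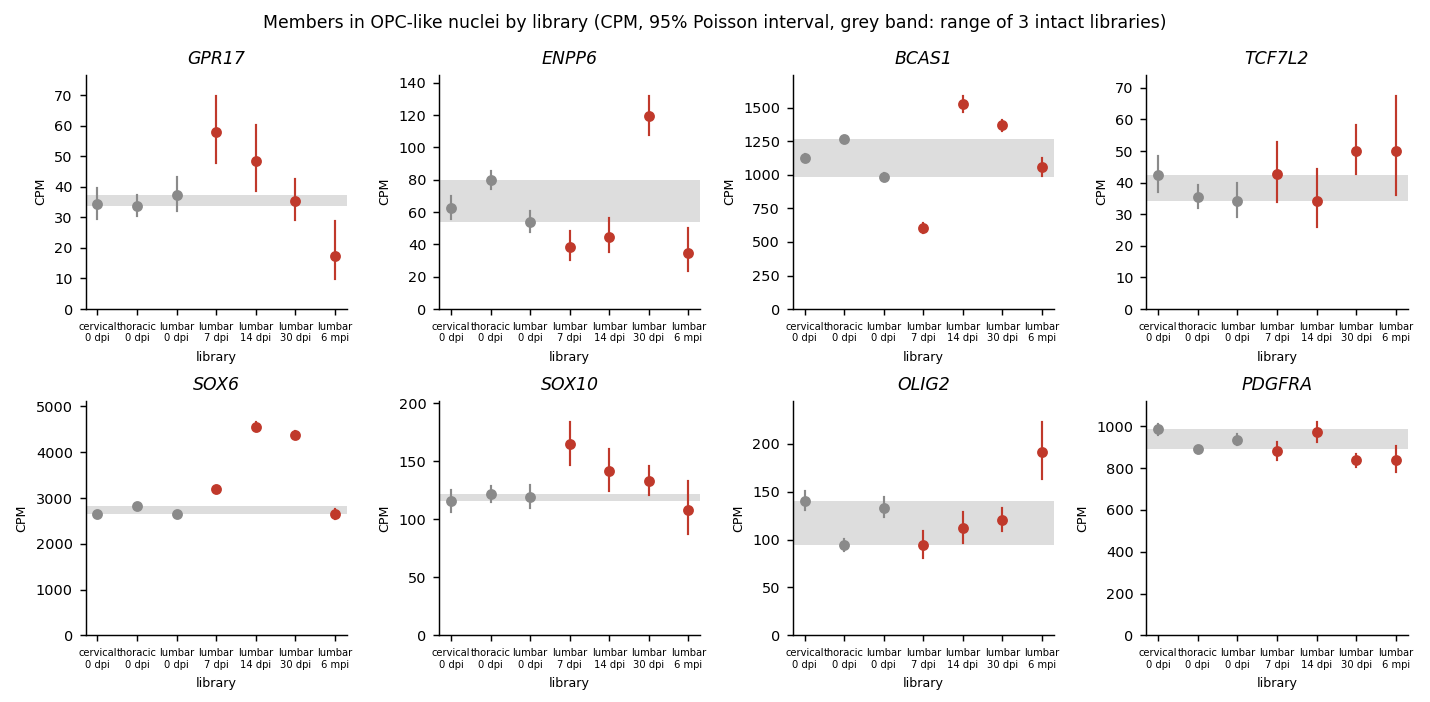
Levels of the 8 genes in OPC-like nuclei of each of the 7 libraries in CPM, each gene on its own axis, with exact Poisson 95% intervals and a grey band over the range of the 3 intact libraries. ENPP6 at 30 dpi (119 CPM) and GPR17 at 6 mpi (17.5 CPM) are the values at least 2-fold from intact lumbar cord.

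Signs of other cell classes differed between libraries in the OPC-like nuclei. The 8 microglia/macrophage markers summed to between 17.3 and 22.6 CPM in intact cord and between 39.6 and 77.3 CPM in injured cord, and the neuron markers to between 462 and 589 CPM and between 199 and 487 CPM. Endothelial markers summed to between 12.9 and 15.9 CPM in intact and 21.0 and 29.8 CPM in injured cord, and ependymal markers to between 52.6 and 59.3 CPM and between 61.3 and 115 CPM. Astrocyte markers were at 877 to 949.8 CPM in intact cord, at 1315 CPM at 7 dpi and at 812 to 947 CPM in the other injured libraries. Oligodendrocyte markers summed to 644, 628 and 286 CPM in intact cervical, thoracic and lumbar cord. After injury they summed to 312, 269, 761 and 502 CPM at 7 dpi, 14 dpi, 30 dpi and 6 mpi. Fibroblast markers were at or near 0, with COL1A1, COL3A1 and LUM at 0 in each library. GPR17 itself was at 0.207 CPM or less in pooled neuron-like, microglia/macrophage-like and astrocyte-like nuclei, and at up to 0.421 CPM in a single library. In pooled ependymal-like and T cell-like nuclei it was at 0.883 and 0.958 CPM, on 3 and 1 UMIs. The part of other classes in the levels of the 8 genes was not tested. Dividing nuclei, defined by 2 or more cell cycle genes, numbered 49 of the 3949. Of these 18 were at 7 dpi (5.49% of its OPC-like nuclei), 15 in intact thoracic cord (1.06%) and 10 at 30 dpi (3.04%). GPR17 was at 10.5 CPM (5 UMIs) in dividing and 37.1 CPM in the other OPC-like nuclei, BCAS1 at 498 and 1180 CPM, ENPP6 at 27.4 and 71.1 CPM, and TCF7L2 at 14.8 and 39.4 CPM. PDGFRA was at 707 and 915 CPM and SOX6 at 2724 and 3072 CPM. These values pool libraries that hold 0 to 18 dividing nuclei, and the direction was not the same in each. In intact lumbar cord, with 3 dividing nuclei, BCAS1 was at 1632 CPM in them and 981 CPM in the others, so no difference between the genes is read from the pooled values.

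OPC-like nuclei with a GPR17 UMI (720 nuclei, median 7754.5 UMIs) also differed from those without one (3229 nuclei, 6206 UMIs) in the other members. ENPP6 was 2.49-fold higher in nuclei with GPR17 in the sum of libraries and higher in 5 of 7 libraries, BCAS1 2.08-fold and 6 of 7, TCF7L2 1.63-fold and 5 of 7, and SOX6 1.25-fold and 7 of 7. SOX10, OLIG2 and PDGFRA ran at 1.08, 0.934 and 0.930 times the level without GPR17. ENPP6 UMIs were found in 28.8% of nuclei with GPR17 and 19.2% without, and TCF7L2 UMIs in 26.0% and 17.7%, shares that also depend on the greater depth of the former. The 10 genes most like GPR17 by this ratio, among genes with 50 or more UMIs in those nuclei and higher in 6 or more libraries, were CDH7 (4.31-fold), LIMS2 (3.31-fold), IL17D (3.28-fold), SEMA4D (2.77-fold), BMPER (2.73-fold), DOCK6 (2.63-fold), TMEM108 (2.58-fold), FRMD4A (2.51-fold), RASGEF1B (2.43-fold) and CKMT2 (2.35-fold). Without the 30 dpi library CDH7 was 2.49-fold and LIMS2 3.01-fold higher, and ENPP6 1.99-fold, a choice made after the values were seen. BMPER, TMEM108 and FRMD4A also led the committed precursor-like sub-cluster. LIMS2 is the gene that contains GPR17, and shared reads cannot be told apart from shared expression there.

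Other genes of the lineage were followed in 3 lists. Of 17 further committed and new oligodendrocyte genes, 10 of them the naming markers of the committed precursor-like nuclei, 12 could be called in OPC-like nuclei. At 7 dpi 3 of them were higher (SOX4, TMEM163 and MYRF) and 0 lower, against 3.56% of all genes examined, and the median log2 ratio of the list was 0.47 against 0.04 over all genes. At 14 dpi 2 were higher (TMEM163 and MYRF) and 1 lower (NEU4), against 3.21%, with a median of 0.53 against -0.00. At 30 dpi 4 were higher (RRAS2, EPHB1, TMEM163 and MYRF), against 2.76%, with a median of 0.50 against -0.00, and at 6 mpi 1 was higher (MYRF), against 5.29%, with a median of 0.13 against 0.05. Without the committed precursor-like nuclei the 30 dpi log2 ratios of RRAS2 and EPHB1 were 0.28 and 0.12, so both calls were lost, and both genes are among the 10 markers of this list that named those nuclei, while those of TMEM163 and MYRF were 1.17 and 1.54. MYRF, the transcription factor that switches on myelin genes, was called in all 4 injured libraries, at 28.7, 26.5, 39.1 and 47.7 CPM at 7 dpi, 14 dpi, 30 dpi and 6 mpi. Its intact levels were 19.7 and 25.05 CPM in cervical and thoracic cord but 10.0 CPM in lumbar cord, so the ratios rest on a low base, and the 14 dpi level was just above the thoracic one. Of 13 precursor genes 12 could be called, and 0 were at 7 dpi, 14 dpi and 30 dpi. Of 16 maturing genes 6 could be called, and MBP and ST18 were higher at 30 dpi, at 473 and 44.7 CPM. Without the committed precursor-like nuclei they were at 166 and 26.9 CPM, inside the intact ranges of 102 to 275 and 4.91 to 29.98 CPM, so both calls were lost.

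In oligodendrocyte-like nuclei, SOX6 was the only member called by the rule given above. It was at 36.8, 42.1 and 32.7 CPM in intact cervical, thoracic and lumbar cord and at 67.0, 68.3, 80.4 and 56.2 CPM at 7 dpi, 14 dpi, 30 dpi and 6 mpi. The injured libraries were all above the intact ones, and the ratios to intact lumbar cord were 2.05, 2.09, 2.46 and 1.72. Microglia/macrophage markers in the same nuclei summed to between 10.6 and 18.7 CPM in intact and between 30.8 and 55.8 CPM in injured cord, also without overlap, while SOX6 in microglia/macrophage-like nuclei themselves was at 3.02 to 11.6 CPM. Markers of the classes with much SOX6 moved in part of the libraries. Ependymal markers summed to 96.9, 98.8 and 96.1 CPM in intact cord and to 144, 75.6, 149.9 and 122 CPM at 7 dpi, 14 dpi, 30 dpi and 6 mpi. Astrocyte markers summed to 216, 239 and 198 CPM in intact cord and to 298, 144, 165 and 202 CPM after injury. OPC markers summed to 340, 342 and 314 CPM in intact cord and to 380, 180, 257 and 223 CPM after injury. The part of OPC-like, ependymal-like and astrocyte-like nuclei in this SOX6 level was not tested in any library. Of the 8 genes, 6 could be called here, as GPR17 and OLIG2 were below 20 CPM. At 7 dpi 1 of the 6 was called, SOX6, against 4.45% of the 6026 genes examined. That call rested on 183 of the 3794 nuclei, those of the low-MBP sub-cluster, which held 26.0% of the SOX6 UMIs. Without this sub-cluster, a choice made after the values were seen, SOX6 at 7 dpi was at 51.4 CPM, 1.57-fold above intact lumbar cord (log2 ratio 0.65, 0.52 to 0.78), still above the intact libraries but under 2-fold. At 14 dpi 1 was called, SOX6, against 2.92%. At 30 dpi 1 was called, again SOX6, against 3.0%. At 6 mpi 0 were called, against 4.46%. In a list of 6 genes, 0 or 1 call is again too few to be read as a difference from these backgrounds. Intact lumbar cord had the lowest SOX6 level of the intact segments, and against the mean of the 3 intact libraries SOX6 passed 2-fold at 30 dpi only.

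OLIG2 was low in oligodendrocyte-like nuclei, with 6.39, 4.99 and 9.13 CPM in intact cervical, thoracic and lumbar cord and 18.7, 13.5, 15.3 and 11.7 CPM after injury, groups that did not overlap. Its log2 ratios to intact lumbar cord were 1.04, 0.56, 0.75 and 0.35, so at 7 dpi only the 20 CPM filter kept it from a call. Over the settings run these ratios ranged from 0.80 to 1.45, 0.15 to 0.98, 0.74 to 1.17 and 0.15 to 0.77. ENPP6 and BCAS1 ran the other way. ENPP6 was at 204, 218 and 204 CPM in intact cord and 138, 152, 189 and 139.7 CPM after injury. BCAS1 was at 1211, 1162 and 1262 CPM in intact cord and 1043, 835, 1094 and 1005 CPM after injury. In both, every injured library was below every intact one, and none reached 2-fold. The share of all genes with intact and injured libraries apart in this way was not counted. No result is therefore read from that separation for SOX6, OLIG2, ENPP6 or BCAS1. SOX10 was at 92.6, 103, 92.6, 157, 106, 100 and 81.4 CPM, with 7 dpi well above the others. TCF7L2 was at 19.9, 19.2, 20.3, 21.3, 17.5, 18.1 and 29.8 CPM, with 6 mpi above the others. PDGFRA ran from 140.0 to 155 CPM and GPR17 from 0.354 to 1.79 CPM, the latter on 4 to 29 UMIs in a library.

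The oligodendrocyte-like nuclei fell into 13 sub-clusters, which were split by OPALIN level after the values had been seen. In 4 sub-clusters (8808 nuclei) OPALIN was at 406 to 511 CPM, and in 8 (13216 nuclei) at 4.98 to 266 CPM. SOX6 was at 96.7 to 140.1 CPM in the OPALIN-high and 14.0 to 61.8 CPM in the OPALIN-low sub-clusters, OLIG2 at 15.7 to 33.2 and 2.05 to 9.32 CPM, and ENPP6 at 48.7 to 89.4 and 183 to 333 CPM. With the sets split at 300 CPM, none of these 3 ranges overlapped between these 12 sub-clusters, with SOX6 and OLIG2 higher on the OPALIN-high side and ENPP6 on the OPALIN-low side. PDGFRA, at 120 to 138 and 147 to 168 CPM, did not overlap either, while GPR17, BCAS1, TCF7L2 and SOX10 did. The share of all genes without overlap was not counted, so no result is read from these ranges. The remaining sub-cluster, 190 nuclei of which 183 came from 7 dpi, went against the order of SOX6, OLIG2 and ENPP6. It had little OPALIN (39.9 CPM) but 471 CPM of SOX6, 29.0 CPM of OLIG2 and 61.6 CPM of ENPP6. It was kept out of both sets for its low MBP, 3075 CPM against 6239 CPM or more in the others, and had 247 CPM of SOX10. Counted with the OPALIN-low sub-clusters, it makes the ranges of SOX6, OLIG2, ENPP6 and PDGFRA overlap. OPALIN-high nuclei made up 25.3%, 25.2% and 30.7% of the oligodendrocyte-like nuclei across intact cervical, thoracic and lumbar cord and 50.3%, 59.8%, 55.4% and 53.5% at 7 dpi, 14 dpi, 30 dpi and 6 mpi. This difference depended on where the split was set. A sub-cluster of 2807 nuclei, 97.9% of them from intact cord, lay just under it with OPALIN at 266 CPM, SOX6 at 29.5 CPM and ENPP6 at 201 CPM. With a split at 250 CPM, which moves it to the OPALIN-high set, the shares were 49.5%, 43.7% and 58.3% in intact cord and 50.7%, 59.9%, 55.7% and 55.3% after injury, and the groups overlapped. The SOX6, ENPP6 and PDGFRA ranges of the sets then overlapped too, while those of OLIG2 did not. OPALIN itself, over all oligodendrocyte-like nuclei, was at 158, 149 and 179.5 CPM in intact cord and 173, 210.1, 189.8 and 179.3 CPM after injury.

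**Figure D5:**
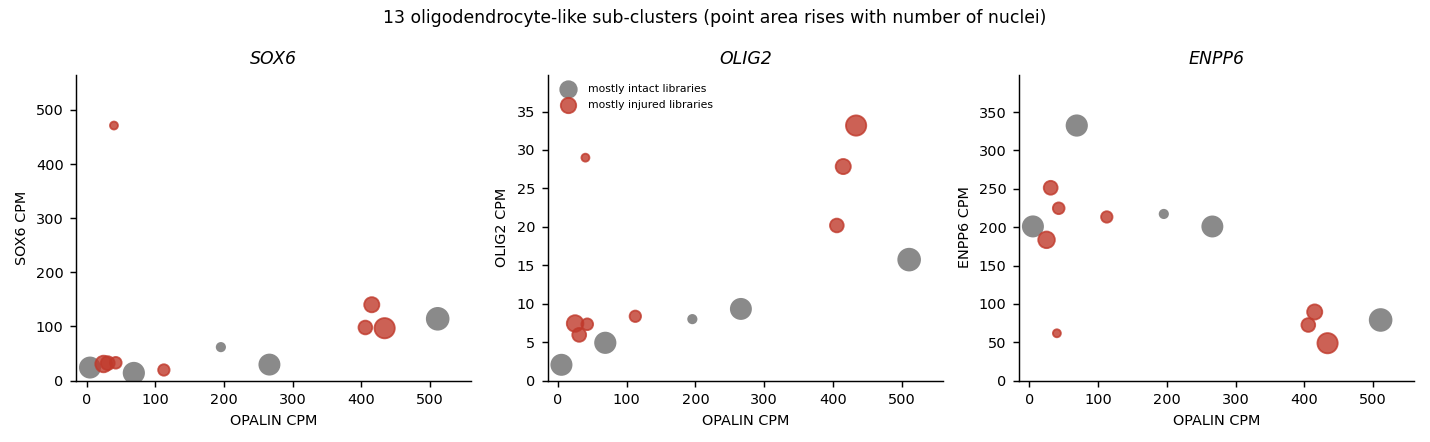
Levels of SOX6, OLIG2 and ENPP6 against OPALIN, both in CPM, with 1 point for each of the 13 oligodendrocyte-like sub-clusters, its area rising with the number of nuclei, grey where most nuclei came from intact and red where most came from injured libraries. The 4 sub-clusters at the right have OPALIN at 406 to 511 CPM, SOX6 at 96.7 to 140.1 CPM and ENPP6 at 48.7 to 89.4 CPM, whereas 8 of the 9 with less OPALIN have ENPP6 at 183 to 333 CPM and SOX6 at 14.0 to 61.8 CPM. The ninth, the small low-MBP point at 39.9 CPM of OPALIN, lies apart with ENPP6 at 61.6 CPM, SOX6 at 471 CPM and OLIG2 at 29.0 CPM.

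Within the OPALIN-high set, SOX6 was at 96.3, 125 and 89.5 CPM in intact cervical, thoracic and lumbar cord and at 88.3, 109.8, 146 and 125 CPM at 7 dpi, 14 dpi, 30 dpi and 6 mpi, so intact and injured libraries overlapped. With the split at 250 CPM they did not, at 59.1, 85.8 and 52.7 CPM against 87.9, 109.8, 146 and 121 CPM. Within the OPALIN-low set it was at 23.5, 25.7 and 17.7 CPM and at 31.9, 33.5, 33.8 and 18.7 CPM, with 7, 14 and 30 dpi above the intact libraries. OLIG2 in the OPALIN-high set was at 15.5, 10.6 and 19.6 CPM in intact and 36.4, 21.3, 28.9 and 22.4 CPM in injured cord, without overlap. In the OPALIN-low set it was at 4.55, 3.55 and 6.44 CPM in intact and 8.49, 7.12, 5.93 and 5.77 CPM in injured cord, where the groups overlapped. ENPP6 within the OPALIN-low set was at 229, 245, 236, 185, 221, 252 and 200.4 CPM, and its groups overlapped. In the OPALIN-high set it was at 82.7, 79.9, 78.9, 56.9, 68.9, 89.2 and 28.8 CPM, also with overlap, and 6 mpi was the lowest. With the split at 250 CPM the intact values were 143, 140.3 and 142 CPM and the injured ones 57.5, 68.8, 89.5 and 32.4 CPM, without overlap. These within-set comparisons of SOX6 and ENPP6 thus depended on the split, and no difference is read from them. For OLIG2 the share of all genes without overlap was not counted, and no difference is read there either. Most OPALIN-high nuclei of intact cord lay in a different sub-cluster from those of each injured library, and injury and library cannot be told apart.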

How the data were processed

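Nuclei from 7 pieces of spinal cord, 1 library for each group, had been run on 10x Chromium v3 chemistry by the authors, who deposited a matrix of UMI counts per gene and nucleus for each library. The submitters' processing notes name Cell Ranger 6.0.0, and gene identifiers are those of Mmul_10. The 8 genes and the gene lists were chosen with earlier results of these data known. The rule for named genes was the 8 genes, the lineage lists, the 10 genes most like GPR17 and the 10 leading genes of a sub-cluster described.

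Nuclei with more than 500 genes, more than 1000 UMIs, under 10% mitochondrial and under 5% hemoglobin UMIs were kept, 67084 of 69332 barcodes, and the 5% of each library with the highest Scrublet doublet scores were removed (3354 nuclei). Library totals ran from 45079131 to 150987900 UMIs, and depth sets the width of each interval. Counts were scaled to 10000 a nucleus, and 2000 variable genes without the 8, 30 principal components, 20 neighbours and Leiden resolution 1 gave clusters, named from marker lists that hold none of the 8 (scanpy 1.11.5, Python 3.11.15). At 6 mpi 2272 nuclei stayed unnamed, 40.3% of that library against 3.41% to 6.07% in the other libraries. The part of this loss in the 6 mpi values was not tested. UMIs were then summed per library and class and divided by the class total. Exact Poisson, conditional binomial and Clopper-Pearson intervals cover counting error only (scipy 1.17.1). Detection was compared after thinning each nucleus to 1000 UMIs. The calling step was tested on simulated data. OLIG1, MAG and ZNF488 were not analysed here. The count of the precursor list at 6 mpi is not reported here.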

Additional observations from a re-analysis of the deposited data

How the results depend on the processing

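No paired analysis was possible because each group has 1 library. In the comparisons between groups no library was left out, for the same reason. The cause was not tested for any value below, except where fewer nuclei or genes enter by construction. In OPC-like nuclei, the count of members past 2-fold at 30 dpi was 0 in place of 1 with the mean of the 3 intact libraries as the base, with nuclei thinned to 1000 UMIs, at Leiden resolution 2, with each nucleus named alone, with committed precursor-like nuclei left out and at a 3-fold limit. At 6 mpi it was 0 in place of 1 with thinning, without committed precursor-like nuclei and at 3-fold. At 7 dpi it was 2 (GPR17 and OLIG2) with thinning, and at a 1.5-fold limit it was 2 in each of the 4 injured libraries. The log2 ratio of ENPP6 at 30 dpi reversed from 1.15 to -0.47 at Leiden resolution 2 and to -0.22 without committed precursor-like nuclei, a setting added after seeing the data.

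In oligodendrocyte-like nuclei, the count at 7 dpi was 0 in place of 1 with the mean of the intact libraries, median-of-ratios scaling, each nucleus named alone, the low-MBP sub-cluster left out (added after seeing the data) and 3-fold. It was 2 at 1.5-fold, with a minimum of 5 CPM and with no filter. At 14 dpi it was 0 with the mean of the intact libraries, thinning, each nucleus named alone and 3-fold, and 2 at 1.5-fold and with no filter. At 30 dpi it was 0 at 3-fold. At 6 mpi it was 1 (SOX6) with thinning and at 1.5-fold. The sign of the SOX6 ratio was positive in each injured library under every setting run, with log2 ratios between 0.60 and 1.80.

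The GPR17 share of OPC-like nuclei without thinning was 19.8%, 15.5%, 18.7%, 25%, 26.7%, 20.4% and 6.82% across intact cervical, thoracic and lumbar cord, 7 dpi, 14 dpi, 30 dpi and 6 mpi. Thinned to 500 UMIs it was 1.17%, 1.48%, 1.76%, 3.05%, 2.54%, 1.52% and 2.27% in that order. A different measure, the share with any 2 or more of GPR17, ENPP6 and BCAS1, does not require GPR17. It was 4.98%, 5.72%, 3.93%, 5.18%, 5.51%, 7.29% and 1.82%. The committed precursor-like share at 30 dpi was 0.810% at sub-clustering resolution 0.5, and with OPC-like nuclei as the denominator the shares were 1.90%, 4.73%, 1.49%, 13.6% (14 dpi), 4.26% (30 dpi) and 1.36% (6 mpi). Of the 32 log2 ratios in each class, thinning moved 13 in OPC-like and 13 in oligodendrocyte-like nuclei outside the interval of the unthinned ratio. The larger counting error of the thinned ratios was not included, so these moves are not shown to exceed counting error.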
